A study of Mus musculus with 6 samples.

Results

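Deup1 (deuterosome assembly protein 1) and 8 further genes of centriole duplication and multiciliogenesis were followed in germinal vesicle (GV) oocytes of the mouse, which are full-grown and arrested in meiotic prophase. The 9 genes are Deup1, Cep63, Cep152, Plk4, Sass6, Stil, Cenpj, Ccno and Mcidas, taken by gene symbol from a table of 25353 genes, and each of the 9 had a row. Deup1 was chosen by its measured KO minus WT difference, among the largest rises in these same libraries, so its values for knockout and wild type are given as a description with no test. The other 8 were listed for their function, with earlier results of these data known. The study had 6 libraries, 3 labelled wild type (WT) and 3 labelled knockout (KO), each made by Smart-Seq2 from 5 pooled oocytes of C57BL/6J mice. The series title and design name Mfn2-/-, whereas the genotype and protocol labels of the samples name Mfn1-/-. The protocol gives an age of 8 weeks and the age label P1, and the protocol also speaks of follicles and granulosa cells. The labels give no Cre driver or allele, and nothing ties each pool to its own mouse, so p-values measure the spread between these pools.

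As a check of the labels, WT libraries had Mfn2 at 25.5, 38.1 and 32.3 normalized read counts, KO libraries at 5.25, 5.28 and 4.50, and Mfn1 had 298.5 to 363 in WT and 379 to 398 in KO. Libraries held 6450191 to 7992598 reads, and 3 reads, the most that a count of 0 allows, came to 2.70 to 3.33 normalized counts. That limit covers counting error only. All 12 oocyte markers had a value, with sums of 198610 to 224257 in WT and 163588 to 196495 in KO. The summed markers of other ovarian cells were 21.4 to 702 in WT against 7.19 to 7.40 in KO for 4 theca and steroidogenic genes. They were 26.8 to 152 against 8.09 to 11.6 for 6 stromal genes and 113 to 133 against 37.8 to 47.5 for 6 immune genes. H2-Aa alone made up 54.3, 96.7 and 67.4 of the WT immune sums and 21.0, 34.9 and 23.4 of those in KO. Cd74, another immune marker, had 24.4, 0 and 10.2 in WT and 0 in each KO library. The 12 granulosa genes gave 599.8 to 2059 against 503 to 690, which overlapped. Hsd3b1 alone made up 1270, 0.930 and 219 of the WT granulosa sums, in replicate order. Other granulosa genes went in both directions, such as Cyp19a1 (mean 404 in WT, 313 in KO) and Fshr (8.64 and 16.9). Groups overlapped for 5 endothelial genes (196 to 250 in WT against 168 to 260 in KO) and 6 surface epithelium genes (15.8 to 29.9 against 12.7 to 26.1). The theca, stromal, granulosa and immune sums were each highest in WT replicate 1, and the part of these cells in the differences below was not tested. In pooled oocytes, fewer cells with a transcript and less RNA per cell cannot be told apart.

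A centriole is copied once per cell cycle by a short chain of proteins. CEP192 and a complex of CEP63 and CEP152 place the kinase PLK4 on the parent centriole, PLK4 phosphorylates STIL, STIL brings in the cartwheel protein SASS6, and CENPJ (also called CPAP) adds the microtubule wall. Multiciliated cells make many centrioles at once on deuterosomes, which are built by DEUP1, the paralogue of CEP63. There the regulators GMNC and MCIDAS switch the programme on, and CCNO (cyclin O) is needed for the amplification. Mouse oocytes lose their centrioles during oogenesis and build the meiotic spindle from acentriolar microtubule-organizing centres.

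Deup1 lies on chromosome 9 (15559864 to 15627933, minus strand, GRCm38). Its normalized read counts, in replicate order, were 3.33, 13.0 and 0.923 for WT and 28.4, 45.4 and 86.3 for KO. Every KO library lay above every WT library, and WT replicate 2 was the closest to the KO libraries. Behind these stand 3, 14 and 1 reads for WT and 27, 43 and 96 for KO, so WT replicates 1 and 3 were at or below the limit that a count of 0 allows. The WT mean was 5.76 ± 6.40 and the KO mean 53.4 ± 29.8 (SD over 3 libraries), and the difference in log2(value + 1) was 3.33 (SE 0.59), the third largest rise of 18762 genes fitted. Leaving out a single library moved it between 2.66 (WT replicate 3 absent) and 4.09 (WT replicate 2 absent).

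**Figure D1:**
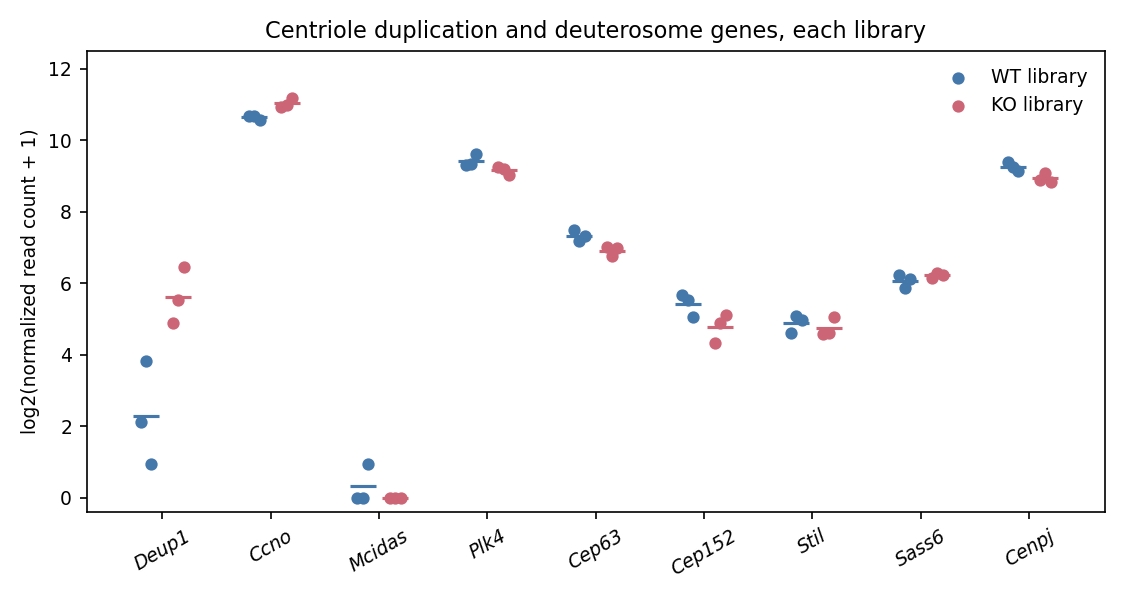
Normalized read counts of the 9 genes on a log2(value + 1) axis; each point is a library (blue WT, red KO) and each bar the mean of 3. Deup1 is the member whose groups lie farthest apart, Ccno is highest in both groups, and Mcidas is at 0 in all but WT replicate 3.

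RefSeq gives Deup1 2 transcript starts, and the gene-level counts do not tell which of them the reads came from. The 250 bases upstream of each are printed 5′ to 3′ on the gene's strand, because the windows differ in base composition. They are from RefSeq on GRCm38.p6, at chr9:15627847-15628096 for the start inside the deposited gene interval and chr9:15628307-15628556 for the start beyond its 5′ end. The windows of Ccno (chr13:112987552-112987801) and Mcidas (chr13:112993618-112993867) follow, because these neighbouring genes stood at opposite ends of the members' range. Capitals mark the letters GTTGCC or their complement GGCAAC, 1 arm of the palindrome bound by RFX factors, and TAATTG or its complement CAATTA, the core bound by the oocyte factor NOBOX.
Deup1, inner start: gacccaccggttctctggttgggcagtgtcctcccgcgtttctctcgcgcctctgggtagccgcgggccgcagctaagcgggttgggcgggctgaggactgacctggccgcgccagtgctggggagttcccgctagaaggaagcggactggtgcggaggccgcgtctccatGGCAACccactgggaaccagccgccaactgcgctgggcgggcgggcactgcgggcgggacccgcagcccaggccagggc
Deup1, outer start: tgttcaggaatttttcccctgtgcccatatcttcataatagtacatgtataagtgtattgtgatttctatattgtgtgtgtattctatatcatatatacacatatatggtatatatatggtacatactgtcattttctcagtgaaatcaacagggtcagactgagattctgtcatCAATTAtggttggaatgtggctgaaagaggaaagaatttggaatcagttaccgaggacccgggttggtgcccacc
Ccno: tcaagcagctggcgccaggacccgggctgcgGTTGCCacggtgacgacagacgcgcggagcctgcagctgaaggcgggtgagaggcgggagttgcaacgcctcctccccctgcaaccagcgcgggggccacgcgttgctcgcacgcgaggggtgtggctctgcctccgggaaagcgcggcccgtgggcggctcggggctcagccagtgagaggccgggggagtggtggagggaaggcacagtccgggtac
Mcidas: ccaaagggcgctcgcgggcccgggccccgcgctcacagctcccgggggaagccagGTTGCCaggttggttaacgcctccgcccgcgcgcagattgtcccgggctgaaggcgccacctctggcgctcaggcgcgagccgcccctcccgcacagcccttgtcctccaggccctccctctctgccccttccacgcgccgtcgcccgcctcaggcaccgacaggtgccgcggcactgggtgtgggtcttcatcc

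The inner Deup1 window has 24 CpG dinucleotides and a GC content of 72%, and the outer one has 2 and 37.2%. Across 32851 RefSeq windows of the same length, 88% have fewer CpG than the inner window and 18.8% fewer than the outer. All 9 members matched a RefSeq entry. On either strand, the letters GTTGCC occur in 10.4% of all windows. Among the members they occur once each in the inner Deup1 window and in those of Ccno and Mcidas, the genes of the deuterosome pathway, and not in the windows of the other 6. The Ccno and Mcidas windows have 26 and 27 CpG, more than 90.4% and 91.4% of all windows. The 10.4% is thus not a share over windows of like composition. Cep63 and Cep152, without the letters, have 38 and 23 CpG. TAATTG occurs in 7.17% of all windows and, among the members, in the outer Deup1 window. An E2F site, searched on both strands as TTT followed by CC, CG, GG or GC and then CGC, occurs in 1.86% of all windows and, among the members, in that of Cep63. These are matches of letters and not sites shown to be bound.

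Ccno and Mcidas are neighbours on chromosome 13, 3067 bases apart, and Cdc20b follows 34716 bases beyond Mcidas. Ccno (112987802 to 112990777, plus strand) had 1647, 1619.9 and 1501 normalized read counts in WT and 1937, 2037 and 2313 in KO. Each KO library lay above each WT library. The means were 1589 ± 77.9 and 2096 ± 195 (SD, n = 3 each), and the log2 difference was 0.40 (95% interval 0.17 to 0.62, limma adjusted p = 0.0496). Leaving out a library ended this call in 5 of 6 cases: the limma adjusted p became 0.114, 0.134 and 0.185 for WT replicates 1 to 3, and 0.113 and 0.139 for KO replicates 2 and 3. For KO replicate 1 it was 0.0138. Mcidas (112993845 to 113000394, plus strand) had 1 read in WT replicate 3 and 0 in the other 5 libraries, and Cdc20b, a deuterosome component, had 1 read in WT replicate 2 and 0 in the others. So the cyclin gene was abundant in GV oocytes and its neighbours were at or near 0.

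Of the 7 members tested beside Deup1, Ccno passed the threshold of 0.05 and 6 did not, and Mcidas was left out by the filter on low values. Over all genes 3.28% were called, 1.87% higher and 1.41% lower in KO, and nothing is read from the members' count because this contrast was known when they were chosen. The KO libraries lay above all WT libraries in Deup1 and Ccno and below them in Cep63, Plk4 and Cenpj. Over all 18762 genes the groups did not overlap in 23.2%, KO above in 11.5% and KO below in 11.7%. Ccno had an adjusted p of 0.0396 in edgeR, which called 6.03% of 13078 genes, and of 0.00874 in DESeq2, which called 7.79% of 11098.

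**Figure D2:**
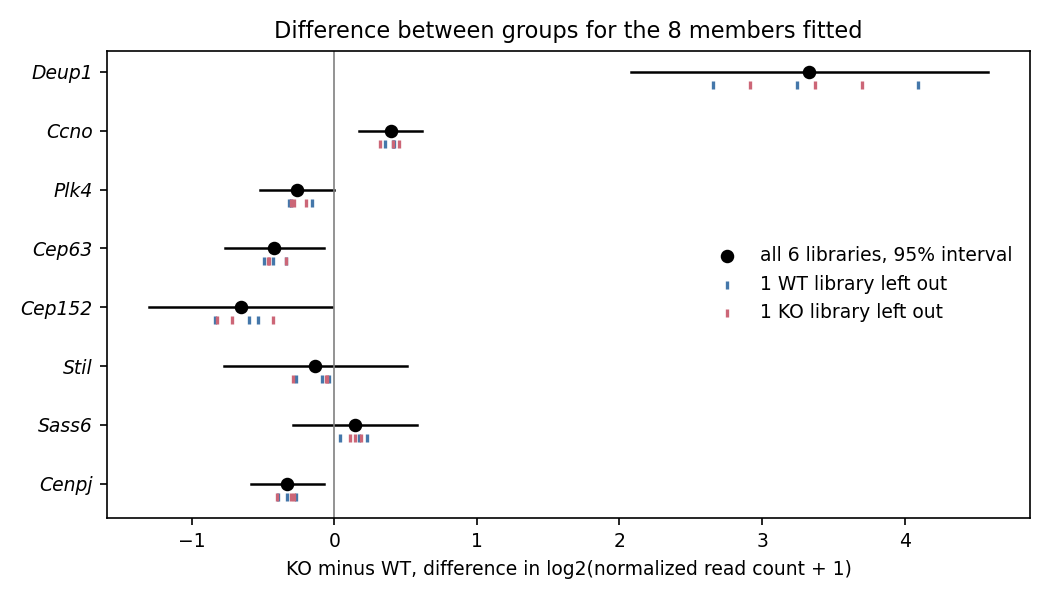
KO minus WT difference in log2(normalized read count + 1) for the 8 members that were fitted; black points with lines are the estimate with its 95% interval, and ticks beneath are the estimates with 1 library left out. Deup1 stands at 3.33, Ccno at 0.40, and the other members lie between -0.66 and 0.15.

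Cep63, whose product recruits CEP152 to the parent centriole, had 179, 145 and 158 in WT and 127, 107 and 125 in KO. All 3 KO values were below the WT values, with a log2 difference of -0.42 (95% interval -0.77 to -0.07) that missed the threshold (limma adjusted p = 0.181). Cep63 lies on chromosome 9 (102584588 to 102626534, minus strand) and shares 2.49% of its exon bases with Anapc13, which runs the opposite way, and the kit keeps no strand to separate them. Cep152, the scaffold that binds PLK4 (chromosome 2, 125563088 to 125625113, minus strand), had 49.9, 45.6 and 32.3 in WT and 18.9, 28.5 and 33.3 in KO. The groups overlapped through WT replicate 3 and KO replicate 3. Its log2 difference was -0.66 (95% interval -1.30 to -0.02, adjusted p = 0.263).

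Plk4, the kinase that starts duplication (chromosome 3, 40800019 to 40816883, plus strand), had 629, 643 and 786 in WT and 604, 587 and 519.8 in KO. The groups did not overlap, although WT replicate 1 and KO replicate 1 were close. Its log2 difference was -0.26 (95% interval -0.52 to 0.00, limma adjusted p = 0.279). Stil (chromosome 4, 115000159 to 115043196, plus strand), the PLK4 substrate, had 23.3, 32.5 and 30.5 in WT and 23.1, 23.2 and 32.4 in KO. These overlapped, with a log2 difference of -0.13 (95% interval -0.77 to 0.51, adjusted p = 0.873). Sass6, the cartwheel gene (chromosome 3, 116594982 to 116631004, plus strand), had 74.3, 56.7 and 68.3 in WT and 69.3, 77.1 and 73.7 in KO. Its log2 difference was 0.15 (95% interval -0.29 to 0.58, adjusted p = 0.771), and 24.5% of its exon bases overlap the antisense model Gm42893 and 6.36% Trmt13.

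Cenpj, the gene of the wall elongation factor (chromosome 14, 56526761 to 56575425, minus strand), had 668, 611 and 559 in WT and 468, 536 and 457 in KO. No KO value reached the lowest WT value. The log2 difference was -0.33 (95% interval -0.59 to -0.07, limma adjusted p = 0.151). Cep63, Cep152, Plk4, Stil and Cenpj thus had estimates below 0, and none of them passed. The intervals of Cep63, Cep152 and Cenpj leave out 0 before adjustment, and those of Plk4, Stil and Sass6 hold it, so a difference in either direction within these bounds cannot be told from none.

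To compare genes, reads were divided by the length of all annotated exons and by the library's total, giving RPKM. In WT the order of mean levels on this scale was Ccno (86.4 ± 5.89), Cenpj (17.5 ± 1.82), Plk4 (13.9 ± 1.46), Cep63 (2.32 ± 0.247), Sass6 (1.51 ± 0.195), Cep152 (1.03 ± 0.237), Stil (0.689 ± 0.117), Deup1 (0.244 ± 0.274) and Mcidas (0.0175 ± 0.0304; SD, n = 3 each). Cenpj and Plk4 overlapped between libraries, as did Cep152 and Stil, and Deup1 and Mcidas; the other neighbours in this order did not. In KO, Deup1 ranked 4 at 2.34 ± 1.32, and its range of 1.24 to 3.81 took in Cep63 (1.80 ± 0.185) and Sass6 (1.73 ± 0.0842). Among 16583 protein-coding genes Deup1 was above 31.1% in WT and 58.1% in KO, and Ccno was above 95.6% in WT. With the length of the longest coding transcript instead, an alternative added after the data were seen, Deup1 ranked 6 in KO (2.56), behind Cep63 (4.14) and Sass6 (4.31), and Plk4 stood above Cenpj in both groups.

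DEUP1 and CEP63 bind CEP152 through similar sequences, so their transcripts were set side by side in each library. On the all-exon scale, Deup1 was 5.12%, 20.6% and 1.67% of the pair's summed level in WT, in replicate order, and 39.3%, 55.2% and 66.7% in KO. With transcript lengths these shares were 0.803% to 11.1% in WT and 23.6% to 48.9% in KO. The share was thus higher in every KO library than in every WT library on both scales, which follows in part from the choice of Deup1. The summed level of the pair was 2.27 to 2.74 in WT and 3.15 to 5.71 in KO on the all-exon scale, and 5.16 to 6.13 against 5.75 to 8.54 with transcript lengths, where the groups overlapped. No 75-base window of Deup1, taken every 25 bases, occurs exactly in a transcript of another gene, Cep63 included.

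**Figure D3:**
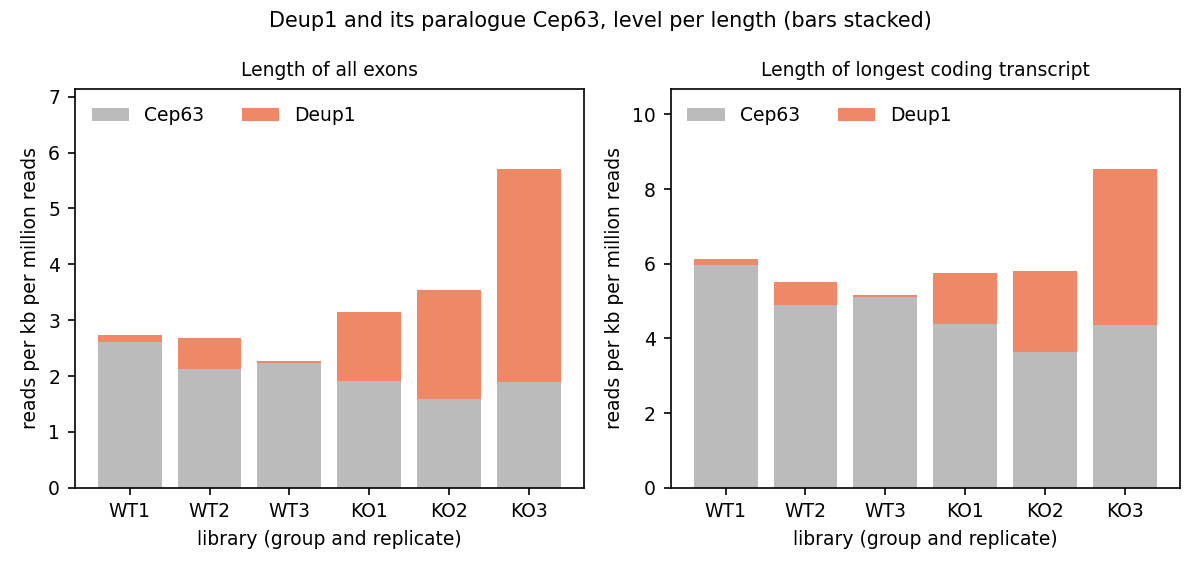
Level of Cep63 (grey) and Deup1 (orange, stacked on top) in each library in RPKM, with the length of all exons on the left and of the longest coding transcript on the right. Deup1 is a thin slice in WT replicates 1 and 3 and 39.3% to 66.7% of the bar in KO on the left.

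Deup1 also varied more between libraries of a group than genes of its level. Its coefficient of variation was 55.8% in KO, where counting error at that level gives 13.7%. Among the 1220 genes with a KO mean between 80% and 125% of its own, the median was 19.8% and 98.4% were less variable. In WT it was 111% against a median of 46.8% over 1098 genes, 95.9% of them less variable. In KO, the next most variable member was Cep152 at 27.2%, and Sass6 varied by 5.33%. KO replicate 1, the KO library with the least Deup1, was also the one whose read counts differed most from the other KO libraries, with a chi-square per degree of freedom of 11.2 and 16.1 against 5.09 between KO replicates 2 and 3. For Deup1 itself (28.4, 45.4 and 86.3 normalized read counts in KO), replicate 3 lay farthest from the rest, so the 2 patterns differ.

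The genes most like Deup1 across the 6 libraries, by Pearson's r of log2(value + 1) among 9566 named genes with a mean of at least 20, were Peg3, Trim30a, Skap1, Cd72 and Arfgef3. Their r lay between 0.993 and 0.997 over 6 libraries, and this measure holds the difference between the groups as well as the spread within them. Peg3 had 28.8, 42.8 and 23.1 in WT and 53.6, 64.4 and 84.5 in KO. Skap1 ranged more narrowly, from 1595 in WT replicate 3 to 1947 in KO replicate 3. A shared order of libraries is what these genes were chosen on, and nothing is read from it or from the size of r over so few libraries.

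Around Deup1, 17 other genes with 5′ ends within 1000 kb were tested and 0 were called in limma. At an unadjusted p under 0.05 there were 4, against 18% of all tested genes. The count was 0 of 11 in edgeR and 0 in DESeq2. The nearest gene downstream, Smco4, ends 14603 bases from Deup1 and had 59.9, 109 and 65.6 in WT and 149, 56.0 and 45.0 in KO. Its groups overlapped, with a log2 difference of -0.06 (SE 0.35), and its highest value was in KO replicate 1, the KO library lowest in Deup1. Slc36a4, 81804 bases upstream, had at most 2.79 in WT and 0 in each KO library. Cep295, a centriole wall gene 202075 bases from Deup1, had a log2 difference of -0.24 (limma adjusted p = 0.492). The antisense model 4930540M03Rik overlaps Deup1 but shares none of its exon bases.

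**Figure D4:**
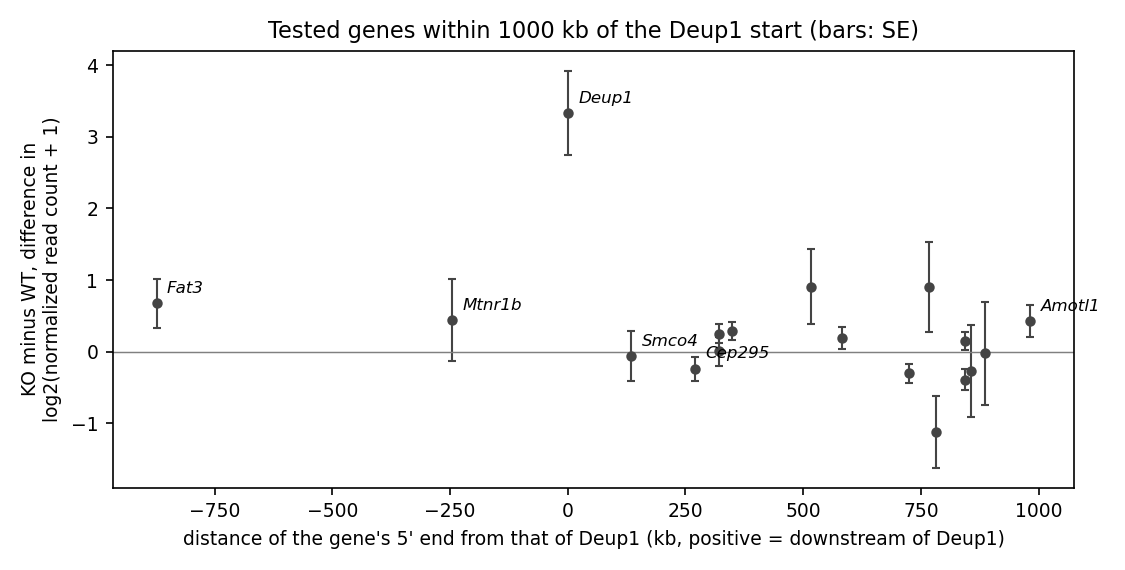
KO minus WT difference in log2(normalized read count + 1), with SE, for Deup1 and the 17 tested genes within 1000 kb, by distance between 5′ ends. Deup1 is at 3.33 and the others lie between -1.12 and 0.91.

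Among the other regulators of multiciliation, 11 of 13 had a value and 8 passed the filter, with a median log2 difference of 0.14 against -0.01 over all tested genes. None was called in limma (4 of 8 had an unadjusted p under 0.05, against 18% of all tested genes), 0 in edgeR and 1 in DESeq2, Gmnn. Gmnn, which encodes geminin, a binding partner of GMNC and MCIDAS, had a mean of 1559 in WT and 2013 in KO (log2 difference 0.38, limma adjusted p = 0.0955, DESeq2 0.049). Trp73, a transcription factor of the programme, had 73.4 and 49.8 (-0.55, limma adjusted p = 0.196). E2f5 and E2f4, which act with MCIDAS, were named after their values were seen and went in opposite directions. E2f5 had 2532 to 2699.99 in WT and 2771 to 3235 in KO (limma adjusted p = 0.389). E2f4 had 634 to 736 in WT and 532 to 620 in KO (limma adjusted p = 0.259). Foxn4 had 4 reads in WT replicate 2 and, like Cdc20b, 0 in all KO libraries, and Gmnc and Foxj1 were not analysed here.

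Motile cilium genes, which mark multiciliated cells, gave similar sums in both groups, 1947 to 2118 in WT and 1991 to 2151 in KO for 26 of 30 genes with a value. Gas8 (mean 591 in WT, 529 in KO) and Cfap53 (499.9 and 534) were the largest parts, so the sums say little of the other genes. Of the 26, 24 were tested with a median log2 difference of 0.11, and none was called in limma. An unadjusted p under 0.05 was found for 2 of 24, against 18% of all tested genes, and edgeR and DESeq2 each called 1, Cfap43. Cfap43, an axonemal protein gene, had a mean of 55.5 in WT and 96.0 in KO (log2 difference 0.77, limma adjusted p = 0.0551, edgeR 0.0404). Dynlrb2, a dynein light chain gene, had 6.49 and 1.41 (limma adjusted p = 0.148). Cfap44 had 1 read in WT replicate 2 and 0 in all KO libraries, and Rsph4a, Dnai1, Dnai2 and Pifo were not analysed here. Thus Deup1 stood higher in KO libraries in which Mcidas, Cdc20b and Foxn4 had no read. These genes were near 0 in WT too, with 1, 1 and 4 reads in all. Myb and Cfap126 went the other way, with 0 reads in WT, 4 in KO replicate 2 for Myb and 3 in KO replicate 3 for Cfap126.

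Other genes of centriole assembly moved in both directions. Of 34 tested, 2 rose and 1 fell in limma, against 1.87% and 1.41% of all tested genes. The median was -0.0045, and 17 lay on each side of 0. Before adjustment, 10 had a limma p under 0.05, against 18% of all tested genes. KO libraries lay above all WT libraries in 3 and below them in 9, against 11.5% and 11.7%. Cep76, whose product restrains re-duplication, rose from 18.9, 17.7 and 14.8 in WT to 37.8, 53.9 and 35.1 in KO. The groups did not overlap, and the log2 difference was 1.24 (95% interval 0.59 to 1.89, limma adjusted p = 0.0379). Cep78, which encodes another centriole wall protein, rose from 370, 343 and 303 to 517, 465 and 469. Its groups did not overlap either, with a log2 difference of 0.51 (95% interval 0.25 to 0.78, limma adjusted p = 0.036). Cep192, whose product works with CEP152 to recruit PLK4 and is part of oocyte spindle poles, fell from 284, 322 and 267 to 194, 168 and 206 (-0.62, 95% interval -0.92 to -0.31, limma adjusted p = 0.029).

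These 3 calls depended on single libraries when the filter was applied again after leaving one out. Cep192 had a limma adjusted p of 0.0845, 0.135 and 0.0804 without WT replicates 1 to 3 and 0.11 without KO replicate 2. Cep78 had 0.0604, 0.106 and 0.161 without WT replicates 1 to 3, and 0.0797 and 0.0638 without KO replicates 2 and 3. Cep76 had 0.0677, 0.0934 and 0.134 without WT replicates 1 to 3, and 0.142 and 0.0554 without KO replicates 2 and 3. The direction of each was the same in all of these fits.

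Pericentriolar genes, which oocytes use at their acentriolar poles, lay below 0 in 17 of 24, against 51.3% of all tested genes, with a median of -0.27 against -0.01. In limma 1 rose and 1 fell, against 1.87% and 1.41% of all tested genes. Before adjustment, 11 had a limma p under 0.05, against 18%. The groups did not overlap in 11 of the 24, KO below in 10, against 23.2% and 11.7% of all tested genes. Mzt1, a small subunit of the gamma-tubulin complex, rose from 224, 322 and 384 in WT to 533, 539 and 532 in KO (0.82, 95% interval 0.48 to 1.16, limma adjusted p = 0.0134). The 3 KO libraries were close to each other and all above WT. Ckap5, a microtubule polymerase, fell by 0.69 on the log2 scale (95% interval -0.95 to -0.44, limma adjusted p = 0.0066). Both calls remained when any single library was left out and the filter was applied again (largest adjusted p 0.0497 and 0.0381). When the gene set of all 6 libraries was held fixed, an alternative added after the data were seen, Mzt1 was lost without WT replicate 1 (limma adjusted p = 0.0692) or KO replicate 3 (0.0861). Ckap5 was lost in the same fits, without WT replicate 1 (0.0558) or KO replicate 3 (0.0516). In this list edgeR called 1 higher and 2 lower, and DESeq2 1 and 4. Over all genes, edgeR called 6.03% and DESeq2 7.79% in either direction.

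Of 15 appendage genes, which encode the distal and subdistal projections of the mature centriole, none was called in limma and the median was -0.09. An unadjusted p under 0.05 was found for 3 of 15, against 18% of all tested genes, with 0 called in edgeR and 1 in DESeq2, Kif2a. Kif2a, a microtubule depolymerase gene, had a mean of 168 in WT and 251 in KO (log2 difference 0.56, limma adjusted p = 0.0691, DESeq2 0.0399), and 22.4% of its windows also occur in Dimt1. Ccdc68, a subdistal appendage gene, had 35.5 and 60.9 (0.83, limma adjusted p = 0.128).

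**Figure D5:**
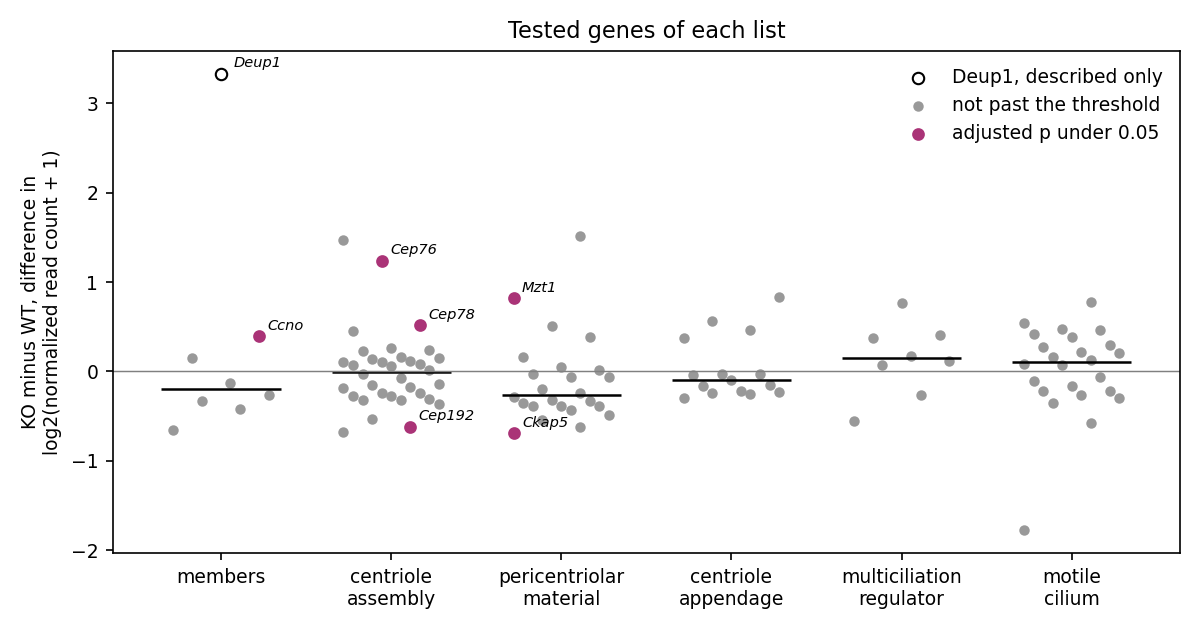
KO minus WT difference in log2(normalized read count + 1) for every tested gene of the members and of the 5 lists; purple points passed the limma threshold, the open point is Deup1, and bars are medians. The purple points are Ccno, Cep76, Cep78, Cep192, Mzt1 and Ckap5.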

How the data were processed

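The deposited table held gene-level values that the authors made with Partek and DESeq2 size factors, per the file headers, and cutadapt, STAR and GRCm38 are named in the submitters' processing notes without versions. This deposited signal is reads divided by 1 factor per library: all values came out as whole reads within 0.1. The filter kept 18762 of 25353 genes, those reaching a value of 1 in 3 or more libraries, and these were tested on log2(value + 1) with limma 3.58.1 (trend; R 4.3.3), KO against WT, with Benjamini-Hochberg adjustment over all of them and a threshold of 0.05. edgeR 4.0.16 (quasi-likelihood) and DESeq2 1.42.0 on the recovered reads were alternatives, beside other pseudocounts, filters, a replicate block and leaving out each library. The statistics were tested on simulated data, where limma recovered 28% of 1.5-fold, 70% of 2-fold and 100% of 4-fold changes. Among the simulated calls 6.88% were false. The simulation gave all genes the same spread beyond counting error. Lengths and overlaps came from GENCODE M21 (95.5% of genes matched) and promoters from RefSeq. The named genes are the members, up to 4 genes a list that limma called, or the 2 of smallest p where it called none, nearest neighbours and the 5 most like Deup1. The members and lists were chosen with earlier results of these data known.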

Additional observations from a re-analysis of the deposited data

How the results depend on the processing

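The fitted members other than Deup1 kept the direction of their difference in every alternative run. Deup1 was chosen on this contrast, so nothing is read from its direction. Counts of calls moved more. All genes lower in KO numbered 264, against 401 in DESeq2 and 175 with the replicate number as a block, and ranged from 41 to 430 with 1 library left out (higher: 351, range 71 to 459). With the gene set of all 6 libraries kept (added after seeing the data), the counts were 90, 130, 58, 438, 176 and 39 higher and 52, 59, 30, 406, 132 and 32 lower, leaving out WT replicates 1 to 3 and then KO replicates 1 to 3. Members called higher numbered 1 with a pseudocount of 0.25 and 1 with the block. With 1 library left out they numbered 0 to 2, over both kinds of leave-out fit together. The 0 came with the gene set of all 6 libraries kept, not with the filter applied again. These counts take in Deup1, which was chosen on this contrast, so no stability of Deup1 is read from them. The change from 2 to 1 was the loss of Ccno. In the assembly list, calls were 0 higher and 0 lower with the block, 2 lower in DESeq2, and 0 to 3 higher and 0 to 2 lower with 1 library left out. Pericentriolar genes called lower numbered 2 in edgeR, 4 in DESeq2 and 2 with a mean of at least 10 as the filter. With 1 library left out they ranged from 0 to 2 lower and 0 to 1 higher, over both kinds of leave-out fit together. The counts of 0 came from fits with the gene set of all 6 libraries kept. Ckap5 and Mzt1 stayed called when the filter was applied again. Appendage and multiciliation genes called higher numbered 1 each in DESeq2 and 0 to 1 with 1 library left out. Motile cilium genes called higher numbered 1 in edgeR, 1 in DESeq2, 1 with no filter and 1 with the mean filter. The cause of these shifts was not tested. Same-numbered WT and KO libraries did not deviate together (r = -0.077, -0.018 and -0.036), so the block pairs only numbers; with it, Ccno had an adjusted p of 0.0999 in limma. Deup1 in WT rests on 18 reads in all, and Mcidas on 1, so depth limits both.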
